A study of Mus musculus with 7 samples.

Results

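A set of 10 FGF genes was followed through a chromatin immunoprecipitation and sequencing (ChIP-seq) experiment on the histone acetyltransferase MOZ: 4 receptor genes (Fgfr1, Fgfr2, Fgfr3 and Fgfr4), 3 ligand genes (Fgf8, Fgf9 and Fgf10) and 3 genes of feedback inhibitors (Spry1, Spry2 and Dusp6). They were chosen by name as core members of the pathway, and their 10 rows were found by mouse gene identifier among the 27179 genes of the count table. MOZ, also called KAT6A, was mapped with an antibody to the V5 epitope in arches 1 and 2 of the pharynx, dissected from C57BL/6 mice at E10.5. In the 3 V5 ChIP libraries both Kat6a alleles were knock-in alleles with a carboxy-terminal Flag-V5-BIO tag, and the submitters describe homozygous mice as healthy and fertile. The 3 wild-type (WT) ChIP libraries came from untagged arches taken through the same immunoprecipitation, and are the negative control. The single input library is chromatin of Kat6a-V5 fusion arches without antibody, so it has no replicate and there is no WT input.

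Fibroblast growth factors are secreted ligands that bind receptor tyrosine kinases together with heparan sulphate and signal mainly through the RAS and MAP kinase cascade. In the pharyngeal arches, epithelial ligands such as FGF8 keep the neural crest mesenchyme alive and pattern it, and FGFR1 and FGFR2 receive these signals. The pathway switches on its own inhibitors: Sprouty proteins act on the way to RAS, and DUSP6 is a phosphatase that takes the activating phosphates off ERK. MOZ itself belongs to the MYST family of acetyltransferases, acts on histone H3, and has a winged-helix region known to bind unmethylated CpG DNA.

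The libraries held 806648, 1138431 and 3286602 counts for V5 replicates 1, 2 and 3, against 1288732, 1327452 and 2504595 for WT replicates 1, 2 and 3, with 3488745 in the input. Values below are CPM, the counts of a gene per 1e6 counts of its library. Depth and genotype were not balanced, since both of the shallowest libraries and also the deepest ChIP library were V5 libraries. Thus 3 counts were worth 3.72 CPM in V5 replicate 1 but 0.913 in V5 replicate 3. The libraries are genomic DNA from mixed arch tissue. Reads over marker genes therefore cannot show which cells were present, and a strong signal in few cells cannot be told apart from a weak signal in many. Counts covered the gene itself, introns included where the deposited length matches the gene's span, so DNA upstream of the gene was not counted.

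The promoters show how unlike these loci are in the CpG content that MOZ is known to read, and they are shown for that reason. RefSeq sequences (GRCm38.p6) were found for 8 of the 10 genes. The 3 genes printed differ in CpG content and come back in the results below. Each line gives the 250 bases before the annotated start, 5′ to 3′ on the gene's own strand, with CG dinucleotides in capitals. The window is chr13:118714449-118714698 (plus strand) for Fgf10, chr7:130266809-130267058 (minus strand) for Fgfr2 and chr5:33721474-33721723 (plus strand) for Fgfr3.
Fgf10: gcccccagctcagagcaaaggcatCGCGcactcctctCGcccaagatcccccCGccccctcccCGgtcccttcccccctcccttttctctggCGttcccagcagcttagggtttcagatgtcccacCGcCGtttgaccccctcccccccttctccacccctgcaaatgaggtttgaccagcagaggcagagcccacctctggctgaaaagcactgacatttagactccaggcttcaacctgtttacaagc
Fgfr2: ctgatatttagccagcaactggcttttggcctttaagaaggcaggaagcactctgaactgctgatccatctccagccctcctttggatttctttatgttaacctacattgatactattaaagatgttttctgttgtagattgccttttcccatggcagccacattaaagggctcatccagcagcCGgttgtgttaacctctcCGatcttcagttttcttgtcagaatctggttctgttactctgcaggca
Fgfr3: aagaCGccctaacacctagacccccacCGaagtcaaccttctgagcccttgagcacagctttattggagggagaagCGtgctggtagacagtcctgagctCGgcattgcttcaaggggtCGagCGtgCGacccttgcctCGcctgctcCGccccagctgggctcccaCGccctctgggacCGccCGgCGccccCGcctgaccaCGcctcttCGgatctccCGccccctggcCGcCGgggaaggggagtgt
The Fgf10 window held 8 CG dinucleotides, the Fgfr2 window 2 and the Fgfr3 window 19. Over all 32851 promoter windows of that length the median was 6, and 92.1% held at least 1. Spry1 and Spry2, the Sprouty genes, each had 23, Dusp6 had 16, Fgfr4 15 and Fgf9 11. A second Fgfr3 start site had 24. Of the 9 windows of these 8 genes, only that of Fgfr4 held the ETS core CCGGAA on either strand, which 12.0% of all windows held. ETS factors such as ETV4 and ETV5 are transcriptional effectors of FGF signalling. These are matches of letters, and counts per gene cannot place a read in any of these windows. The window of the second Fgfr3 start site (33722056 to 33722305) lies inside the counted gene. That of Fgf9 (58072436 to 58072685) lies inside the gene's RefSeq span.

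Before any contrast, the level of reads per length of gene already differed among these loci. In the input, Fgf8 had 1.79 CPM per kb, Spry2 1.35, Fgfr3 1.33, Fgfr4 1.24, Fgfr1 1.00, Fgfr2 0.662, Fgf9 0.609 and Fgf10 0.501, around a median of 0.911 and quartiles of 0.682 and 1.22 over the 14575 genes with enough counts for testing. Only Fgfr1 lay between these quartiles. The 4 shortest of these 8 genes, with deposited lengths of 4873 bp (Spry2) to 15942 bp (Fgfr4), were thus the 4 with the highest input level per kb. The order in the ChIP libraries was another. Per kb, V5 libraries averaged 2.09 ± 3.20 CPM in Fgf8, 1.35 ± 0.877 in Fgfr1, 1.24 ± 1.25 in Fgfr3, 1.03 ± 0.407 in Spry2, 0.903 ± 0.278 in Fgfr2, 0.896 ± 0.234 in Fgf10, 0.855 ± 0.460 in Fgf9 and 0.710 ± 0.220 in Fgfr4 (SD, n = 3). Each pair of neighbours in that order differed by less than the larger of their SDs. WT libraries averaged 1.66 ± 1.20 CPM per kb in Spry2, 1.39 ± 0.203 in Fgf10, 1.14 ± 0.430 in Fgfr4, 1.01 ± 0.679 in Fgfr3, 0.982 ± 0.428 in Fgf9, 0.866 ± 0.0671 in Fgfr2, 0.703 ± 0.0732 in Fgfr1 and 0.619 ± 0.387 in Fgf8 (SD, n = 3), and here Fgfr2 and Fgfr1 were the only neighbours that differed by more than the larger SD. The median gene had 0.935 CPM per kb in V5 and 0.939 in WT.

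The comparison of V5 with WT libraries asks where tagged MOZ was enriched over the antibody's background. No FGF member passed. Of the 6 members with enough counts, 0 had an edgeR quasi-likelihood adjusted p under 0.05, as had 0.00% of the 14575 genes tested, and the smallest adjusted p among the members was 0.978. Their log2 fold changes were positive in 3 and negative in 3 with a median of -0.035, beside a median of 0.026 and 52.5% positive over all tested genes. The 10 members together had 335, 285 and 350 CPM in V5 replicates 1 to 3, against 347, 312 and 312 in WT and 247 in the input. That is 323 ± 34.1 CPM in V5 and 324 ± 20.1 in WT (SD, n = 3), a ratio of 0.998. The means of the groups thus differed by less than the SD of either group.

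**Figure D1:**
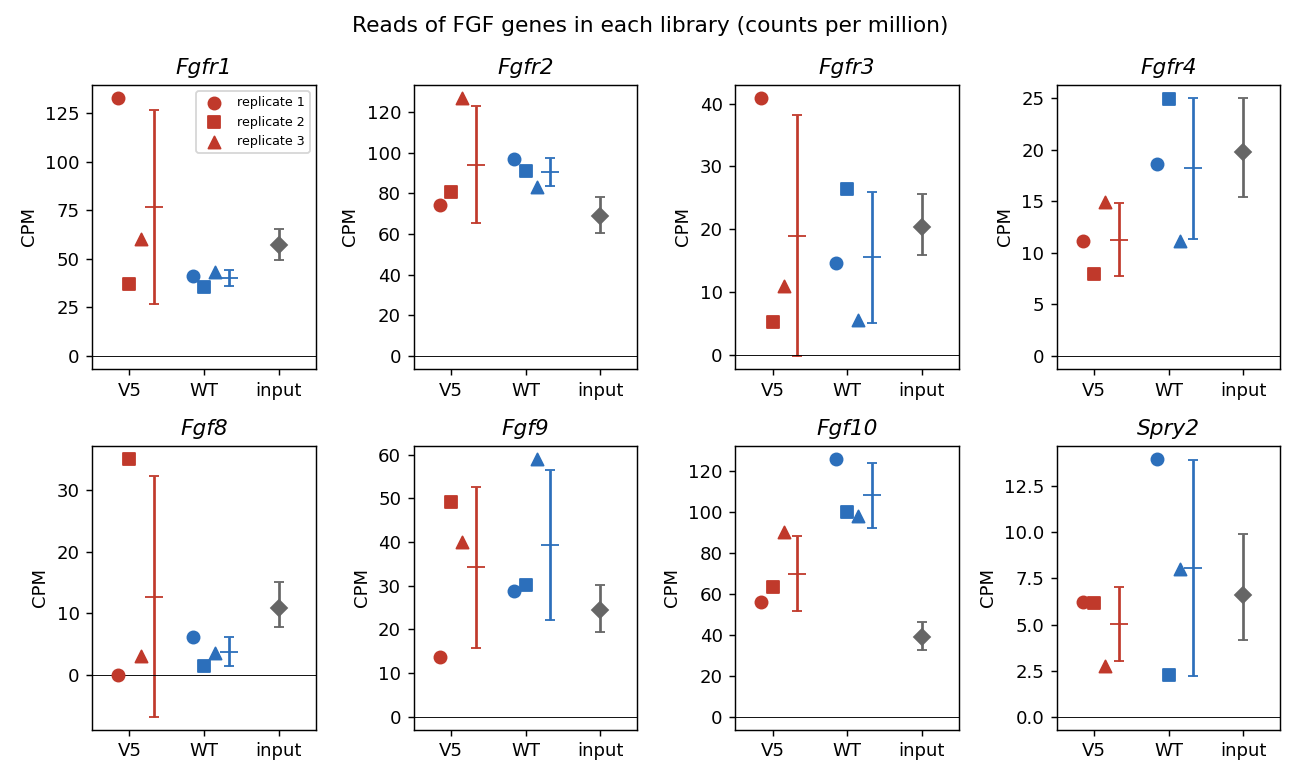
CPM of the 8 FGF genes that had reads, in V5 ChIP libraries (red), WT ChIP libraries (blue) and the input (grey); symbols are replicates 1 (circle), 2 (square) and 3 (triangle), the bar beside them is the mean ± SD, and the bar on the input is its 95% Poisson interval. Fgfr1 is high in V5 replicate 1 alone (133 CPM) and Fgf8 in V5 replicate 2 alone (35.1 CPM), while in Fgf10 the 3 V5 values lie below the 3 WT values.

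Among the receptors, Fgfr1, a receptor of arch mesenchyme (GeneID 14182, chromosome 8, 25518759 to 25575718), had the largest log2 fold change of the 6 tested members. Its counts were 107, 42 and 198 in the V5 libraries, 53, 47 and 109 in WT and 199 in the input. As CPM, that is 133, 36.9 and 60.2 in V5, against 41.1, 35.4 and 43.5 in WT and 57.0 in the input. The WT libraries were close together, V5 replicate 2 lay among them, and V5 replicate 1 stood far above the rest. Its 95% Poisson interval of 109 to 160 CPM did not meet that of any other library, so the gap was larger than counting error. The log2 fold change of 0.97 (SE 0.41) had an unadjusted p of 0.0281 and missed the threshold (adjusted p = 0.978 by edgeR). It was 0.27 without V5 replicate 1 and 0.59 with limma-voom, another model of the same counts. V5 replicate 1 was the highest of the 7 libraries in 2 of the 6 tested members, Fgfr1 and Fgfr3, and in 21.2% of all tested genes. By RefSeq coordinates the non-coding genes Gm31288 and Gm16159 overlap Fgfr1. Neither has a row in the count table, and where they overlap, their reads cannot be told apart from those of the receptor.

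Fgfr2, whose epithelial and mesenchymal splice forms answer different ligands (GeneID 14183, chromosome 7, 130162451 to 130266808), is the longest member at 104358 bp and gave the most counts. It had 60, 92 and 419 counts in V5, 125, 121 and 208 in WT and 241 in the input. That is 74.4, 80.8 and 127 CPM in V5, against 97.0, 91.2 and 83.0 in WT and 69.1 in the input. V5 replicate 3 was above all WT libraries and the other V5 libraries were below all of them. The estimate by edgeR was 0.10 on the log2 scale (SE 0.28, adjusted p = 0.992) and was -0.16 without V5 replicate 3.

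Fgfr3, best known for restraining growth of cartilage (GeneID 14184, chromosome 5, 33721724 to 33737068), had 33, 6 and 36 counts in V5, 19, 35 and 14 in WT and 71 in the input. The CPM values were 40.9, 5.27 and 11.0 in V5, against 14.7, 26.4 and 5.59 in WT and 20.4 in the input, so both groups spread widely and overlapped. By edgeR the log2 fold change was 0.33 (SE 0.76, adjusted p = 0.992), but leaving out V5 replicate 1 gave -0.89 and leaving out WT replicate 3 gave -0.10. Fgfr4, the receptor that pairs with the co-receptor beta-Klotho in liver (GeneID 14186, chromosome 13, 55152818 to 55168759), had 9, 9 and 49 counts in V5, 24, 33 and 28 in WT and 69 in the input. That is 11.2, 7.91 and 14.9 CPM in V5, against 18.6, 24.9 and 11.2 in WT and 19.8 in the input. V5 replicate 2 lay below every WT library, V5 replicate 1 was level with the lowest WT library, WT replicate 3, and V5 replicate 3 lay inside the WT range. By edgeR the log2 fold change stood at -0.63 (SE 0.65, adjusted p = 0.979). The 4 receptors together had 259, 131 and 214 CPM in V5 and 171, 178 and 143 in WT, with 166 in the input.

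Among the ligands, Fgf10, which signals to FGFR2 in budding epithelia and is expressed in pharyngeal mesoderm (GeneID 14165, chromosome 13, 118714699 to 118792573), was the only tested member whose groups did not overlap. It had 45, 72 and 297 counts in V5, 163, 133 and 246 in WT and 136 in the input. As CPM that is 55.8, 63.2 and 90.4 in V5, against 126, 100 and 98.2 in WT and 39.0 in the input. All V5 libraries lay below all WT libraries, as in 5.27% of all tested genes, and V5 replicate 3 was close to the lowest WT value. The log2 fold change was -0.59 (SE 0.28) with an unadjusted p of 0.0459, and it missed the threshold (adjusted p = 0.978 by edgeR). It ranged from -0.80 to -0.48 when single libraries were left out. None of the members had all V5 libraries above all WT libraries, as 4.83% of tested genes did.

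Fgf9, a ligand that passes between epithelium and mesenchyme in several organs (GeneID 14180, chromosome 14, 58070671 to 58112854), had 11, 56 and 131 counts in V5, 37, 40 and 148 in WT and 85 in the input. That is 13.6, 49.2 and 39.9 CPM in V5, against 28.7, 30.1 and 59.1 in WT and 24.4 in the input. The groups overlapped, with the lowest value in V5 replicate 1 and the highest in WT replicate 3. The estimate of -0.17 on the log2 scale (SE 0.47, adjusted p = 0.992 by edgeR) was 0.14 without V5 replicate 1 and 0.24 without WT replicate 3.

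Fgf8, the ligand of the arch epithelium (GeneID 14179, chromosome 19, 45736491 to 45742941), had 0, 40 and 10 counts in V5, 8, 2 and 9 in WT and 38 in the input, too few for the test across genes. The CPM values were 0, 35.1 and 3.04 in V5, against 6.21, 1.51 and 3.59 in WT and 10.9 in the input. V5 replicate 1 had no read, where the 95% Poisson interval reaches 4.57 CPM, while V5 replicate 2 stood above every other library with an interval of 25.1 to 47.8 CPM. The ratio of mean CPM, V5 over WT, was 3.38 and its exact permutation test, two-sided, had p = 0.9 (adjusted p = 1.00 over 9872 genes too low for edgeR), where 3 against 3 allow no p below 0.1. As a log2 value the ratio is 1.76 with every library and -1.31 without V5 replicate 2.

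The feedback genes gave the fewest reads. Spry2, an inhibitor induced by FGF signalling (GeneID 24064, chromosome 14, 105891947 to 105896819), had 5, 7 and 9 counts in V5, 18, 3 and 20 in WT and 23 in the input. That is 6.20, 6.15 and 2.74 CPM in V5, against 14.0, 2.26 and 7.99 in WT and 6.59 in the input, with all V5 values inside the WT range. The ratio of mean CPM was 0.623, and the same exact permutation test had p = 0.5 (adjusted p = 1.00). As a log2 value the ratio is -0.68, or -0.03 without WT replicate 1.

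Spry1, the related Sprouty gene (GeneID 24063, chromosome 3, 37639947 to 37644599), and Dusp6 (GeneID 67603, chromosome 10, 99263231 to 99267489) were listed at 0 in all 7 libraries, the input among them. The input shows that these zeros do not measure binding. Among 2116 genes with deposited lengths of 3 to 6 kb that overlap no other gene of the table, the median was 11 counts in the input and 50 over the 7 libraries, and 39 genes (1.84%) were at 0 throughout. Genes of that size that do overlap another gene of the table were at 0 in 23.9%. By RefSeq coordinates Spry1 overlaps no other gene, and Dusp6 overlaps only the non-coding gene Gm34921, which has no row in the table. Why these rows are at 0 was not tested, and no V5 to WT comparison is possible for either gene.

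Spread within the V5 group bears on every comparison above. The coefficient of variation of CPM was larger in V5 than in WT libraries in 5 of the 6 tested members, against 70.8% of all tested genes. It was 65.2% in V5 and 10.4% in WT for Fgfr1, 30.8% and 7.75% for Fgfr2, and 26.1% and 14.6% for Fgf10. For Fgfr3 it was 101% in V5 and 66.9% in WT, and for Fgf9 53.9% and 43.6%. Fgfr4 was the exception, with 30.9% in V5 and 37.6% in WT. Over all tested genes the medians were 40.5% in V5 and 25.7% in WT. The V5 median fell with gene length. At 10 to 30 kb, where Fgfr3 and Fgfr4 belong, it was 55.5%. At 30 to 100 kb, where Fgfr1, Fgf9 and Fgf10 belong, it was 34.1%. Above 100 kb, where Fgfr2 belongs, it was 17.9%. The high library was not the same one from gene to gene, being V5 replicate 1 in Fgfr1 and Fgfr3, V5 replicate 2 in Fgf8 and V5 replicate 3 in Fgfr2. The lower depth of V5 replicates 1 and 2 moves with this spread, and its part in it was not tested.

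**Figure D2:**
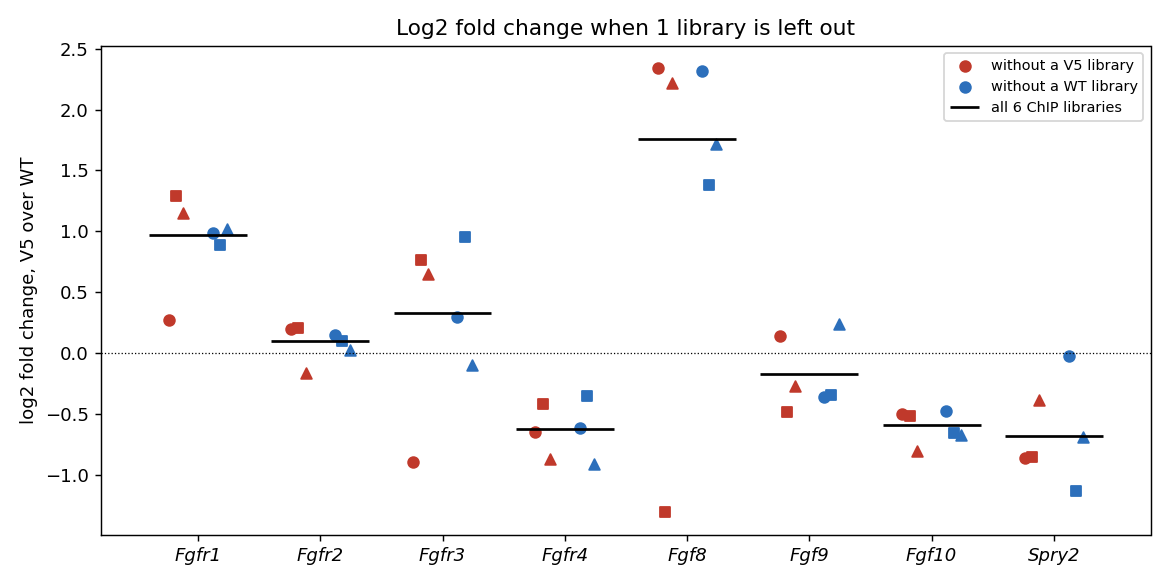
Log2 fold change of each FGF gene, V5 over WT, with all 6 ChIP libraries (black line) and after leaving out 1 V5 library (red) or 1 WT library (blue), replicate 1 as circle, 2 as square and 3 as triangle; Fgf8 and Spry2 are log2 ratios of mean CPM, the others edgeR estimates. Fgf10, Fgfr1, Fgfr4 and Spry2 keep their sign throughout, while Fgf8 stands at -1.31 without V5 replicate 2 and Fgfr3 at -0.89 without V5 replicate 1.

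Set against the input, the ligand genes Fgf10 and Fgf9 and the receptor gene Fgfr2 had higher CPM in immunoprecipitated chromatin from untagged arches. They were also the members with reads whose input level per kb was lowest, at 0.501, 0.609 and 0.662 CPM. In WT, Fgf9 and Fgfr2 had 0.982 and 0.866 CPM per kb, near the WT median of 0.939, while Fgf10 had 1.39. All 3 WT libraries were above the input in these 3 of the 6 tested members, against 27.2% of tested genes. Fgf10 was at 1.79 ± 0.467 times the input in V5 and 2.78 ± 0.405 times in WT (SD, n = 3). Its V5 libraries were at 1.43, 1.62 and 2.32 times the input and its WT libraries at 3.24, 2.57 and 2.52 times. Fgfr2 was at 1.36 ± 0.420 times in V5 and 1.31 ± 0.101 times in WT. Fgf10 and Fgfr2 were above the input in all 6 ChIP libraries, as were 13.0% of tested genes, and they were also the 2 tested members with all 3 V5 libraries above it, against 21.3%. Fgf9 was at 1.40 ± 0.757 times in V5, with V5 replicate 1 at 0.560, and at 1.61 ± 0.704 times in WT. WT embryos hold no V5 epitope, so a ratio above 1 in WT libraries does not measure tagged MOZ. Both sets of ratios share 1 input, whose own error for Fgf10 is a 95% Poisson interval of 32.7 to 46.1 CPM.

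Below the input stood Fgfr1 in WT, at 0.702 ± 0.0731 times, with 0.721, 0.621 and 0.763 in the 3 libraries. It was the only tested member with all WT libraries below the input, against 27.7% of tested genes. In V5, Fgfr1 was at 1.34 ± 0.875 times, with 2.33, 0.647 and 1.06 in replicates 1 to 3. The V5 libraries of Fgfr4 were all below the input, at 0.564, 0.400 and 0.754 times, against 23.5% of tested genes, and its WT libraries were at 0.942, 1.26 and 0.565. None of the tested members was below the input in all 6 ChIP libraries, as 14.9% of tested genes were. Of the genes below the filter, Fgf8 was at 0.346 ± 0.216 times the input in WT, with every WT library below it, and at 0, 3.23 and 0.279 times in V5. Spry2 was at 0.763 ± 0.301 times in V5, with every V5 library below the input, and 1.22 ± 0.888 times in WT.

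**Figure D3:**
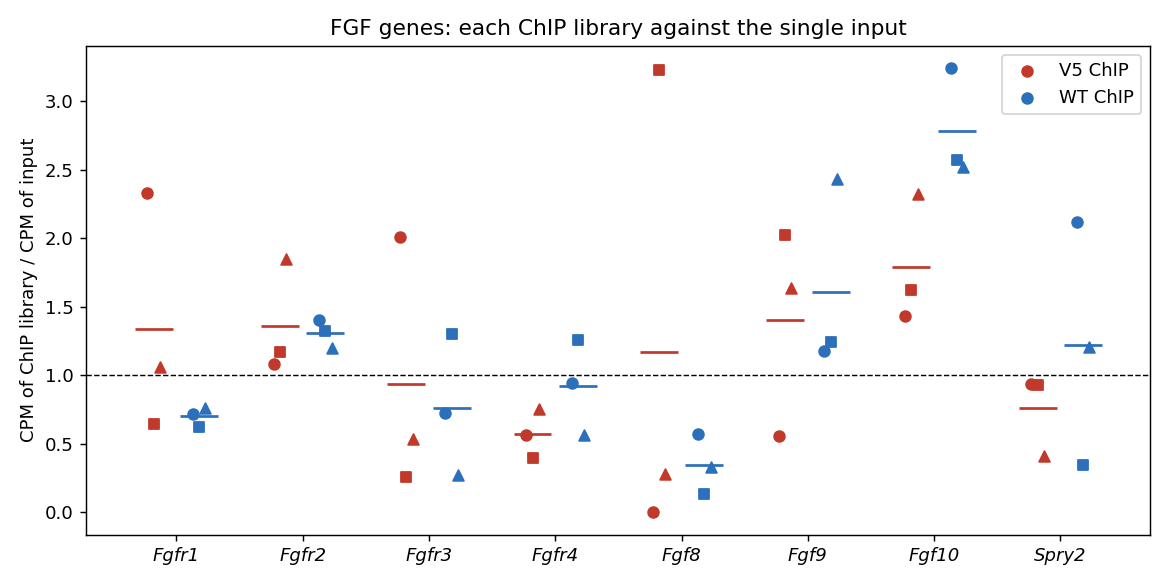
CPM of each ChIP library divided by the CPM of the single input (dashed line at 1), V5 in red and WT in blue, replicates as circle (1), square (2) and triangle (3), with the mean of each group as a line. Fgf10 and Fgfr2 are above the input in all 6 ChIP libraries, and in Fgf10 the WT libraries are the higher ones.

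The genes next to the receptors were read as a local control, since receptor genes lie in related blocks with Tacc, Letm and Nsd genes. TACC proteins bind centrosomes, LETM proteins sit in the inner mitochondrial membrane, and NSD proteins methylate histone H3 at lysine 36. Fgfr1 is flanked by Tacc1 and Letm2, with Nsd3 beyond. Tacc1 had a log2 fold change of 0.75 (SE 0.43), Letm2 of -0.53 (SE 0.64) and Nsd3 of -0.10 (SE 0.25), with edgeR adjusted p of 0.978, 0.984 and 0.992. Tacc1 had 37.2, 93.1 and 37.1 CPM in V5 and 33.4, 39.9 and 27.9 in WT, so its high library was V5 replicate 2, not the V5 replicate 1 that was high in Fgfr1. Letm2 begins 2.76 kb from Fgfr1 and had 4.96 CPM in V5 replicate 1, its lowest library, and its log2 fold change was -1.15 without V5 replicate 3 and -0.04 without WT replicate 1. Neither flanking gene was thus high in the library that was high in Fgfr1. However, Letm2 was near the floor there, where 3 counts are 3.72 CPM, and Tacc1 lies 262 kb away. These values therefore cannot show whether the DNA next to Fgfr1 was high in that library. Fgfr1 also lies 2.58 Mb from Kat6a on chromosome 8, the gene that carries the tag. Kat6a had 90.5, 182 and 95.2 CPM in V5, against 103, 117 and 87.0 in WT, or 0.29 on the log2 scale (SE 0.28, adjusted p = 0.979 by edgeR). Gene counts do not show whether the tag is present.

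Around Fgfr3, Tacc3 stood at 0.67 (SE 0.68) and Letm1 at 0.37 (SE 0.41) on the log2 scale, and Nsd2, farther along, at -0.62 (SE 0.34). Next to Fgfr4, Nsd1 had 137 CPM in both groups (log2 fold change 0.03, SE 0.24), and Zfp346, on the other side, had -1.07 (SE 0.60), which was -2.22 without V5 replicate 3. Around Fgfr2, Tacc2 stood at 0.16 (SE 0.24), and the nearest tested genes, Ate1 and Gm4265, at -0.03 (SE 0.21) and -0.60 (SE 0.75). Gm4265 ranged from -1.95 to -0.22 when single libraries were left out. Beside Fgf10, the predicted gene 1700003P14Rik stood at -0.23 (SE 0.44) and Nnt, which encodes a mitochondrial transhydrogenase and lies 543 kb away, at -0.17 (SE 0.33). Fgf10's neighbours were also above the input in WT on average, at 1.57 and 1.32 times, less than the 2.78 times of Fgf10 itself. None of these genes passed, and their edgeR adjusted p values lay between 0.978 and 0.998. Tacc2, Nsd2 and Nsd3 were picked from the map by name and not as nearest neighbours.

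The wider FGF pathway was covered by 90 further genes, and it showed no common direction either. Of 59 with enough counts, 0 passed the edgeR test, 30 had positive and 29 negative log2 fold changes, and the median was 0.010. Below an unadjusted p of 0.05, 2 had more reads in V5, against 2.85% of all tested genes, and 0 had fewer, against 1.34%. By the same measure Fgfr1 and Fgf10 were 1 member in each direction. The 4 genes with all V5 libraries above all WT libraries were Fgf18, Ext2, Frs2 and Dusp5, and Fgf12, Fgf14 and Gpc6 had all V5 libraries below. These 4 and 3 of 59 stand beside 4.83% above and 5.27% below over all tested genes. Another 5 of the 90 were listed at 0 in all 7 libraries: Fgf7, Flrt1 and Flrt3, which overlap other genes of the table, and Spry3 and Dusp1, which do not. Over the whole table, 24447 of 27179 genes had any count in the ChIP libraries.

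Frs2, which encodes an adaptor that binds FGF receptors, had the smallest p of the pathway. It had 117, 146 and 109 CPM in V5, against 54.3, 81.4 and 76.3 in WT and 88.3 in the input. Every V5 library was above the single input and every WT library below it. Frs2 was named for its small p, and the share of tested genes with this order was not counted. The log2 fold change was 0.84 (SE 0.27) with an unadjusted p of 0.00557 and an edgeR adjusted p of 0.978, and it stayed between 0.67 and 0.95 when single libraries were left out. Fgf18, a ligand of bone and cartilage growth, had 60.7, 49.2 and 23.7 CPM in V5, against 23.3, 15.8 and 18.4 in WT and 17.8 in the input. The edgeR estimate was 1.24 on the log2 scale (SE 0.49, unadjusted p = 0.0193, adjusted p = 0.978), and V5 replicate 3 was only just above the highest WT library.

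By role, the 19 tested signal transducers had 11 positive values and a median of 0.34, with Map2k1, the ERK kinase MEK1, having the smallest p among the negative ones at -0.34 (SE 0.34). The 14 heparan sulphate genes had 6 positive and a median of -0.11. Ext2, a polymerase of the sugar chain, was at 0.30 (SE 0.24) and the glypican gene Gpc6 at -0.16 (SE 0.11). The 9 other feedback genes had 5 positive and a median of 0.046, with the ERK phosphatase gene Dusp5 at 0.96 (SE 0.75) and the Sprouty gene Spry4 at -0.46 (SE 0.80). The 7 target factors had 4 positive and a median of 0.21, with the ETS genes Etv5 at 0.67 (SE 0.37) and Etv1 at -0.34 (SE 0.31). The 7 other ligands had 3 positive and a median of -0.013, with Fgf12, an intracellular member of the family, at -0.25 (SE 0.13). The 3 receptor partners had 1 positive, and Klb, which encodes beta-Klotho, was at 0.06 (SE 0.41) and Kl, which encodes Klotho, at -0.43 (SE 0.47). Every edgeR adjusted p in this list was at least 0.978.

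**Figure D4:**
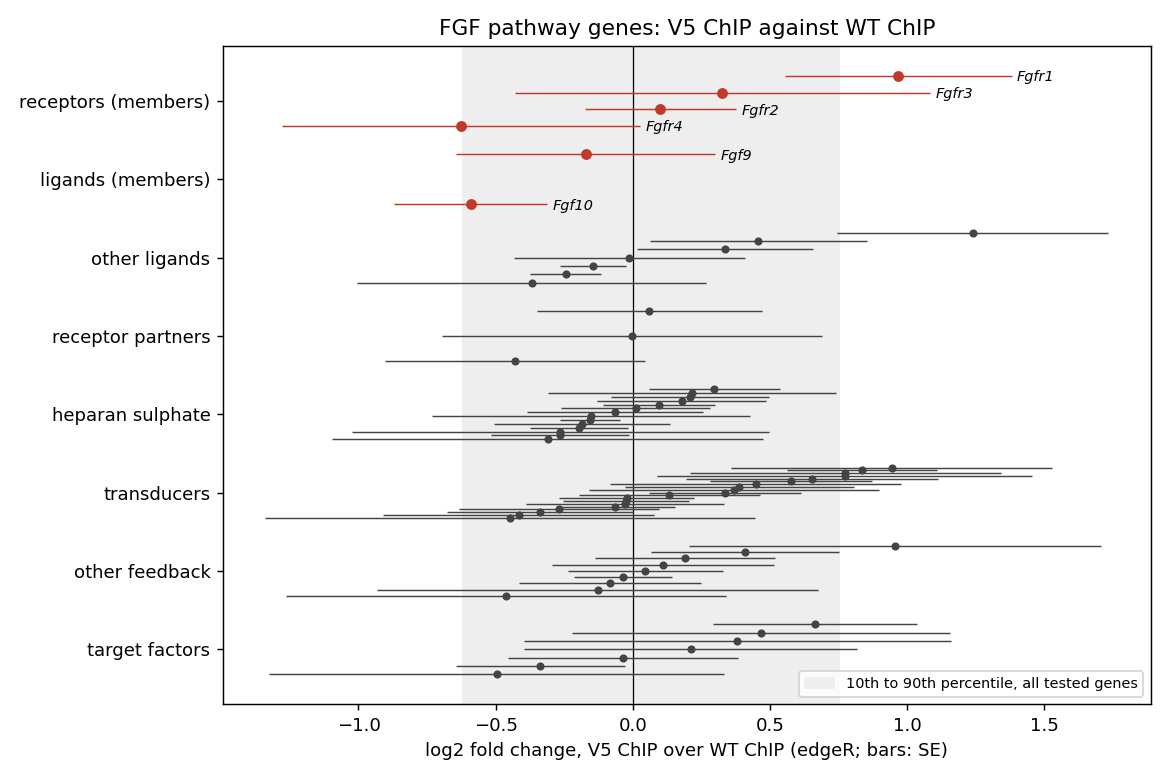
Log2 fold change, V5 over WT, with its SE for the 6 tested FGF members (red, named) and the 59 tested genes of the wider pathway (grey), by role; the shaded band spans the 10th to 90th percentile of all tested genes. Values lie on both sides of 0 in every role except the member ligands, where Fgf9 at -0.17 and Fgf10 at -0.59 are below 0. Of the members, only Fgfr1 at 0.97 lies above the band of -0.62 to 0.75 and only Fgfr4 at -0.63 just below it. The band pools all gene lengths. For tested genes of 10 to 30 kb, such as Fgfr4, the same percentiles are -0.779 and 0.908, and Fgfr4 lies inside them. For 30 to 100 kb they are -0.493 and 0.566, with Fgfr1 above and Fgf10 at -0.59 below.

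Over the 7 libraries, the tested genes with the most similar profile to Fgfr1 were Rtn4rl2 (Pearson r of log2 CPM 0.996), Mroh2b (0.987) and Wdr5 (0.987). The libraries are the same for all genes, so these values describe a shared high point in V5 replicate 1 and carry no test. Wdr5, a subunit of histone H3 lysine 4 methyltransferase complexes, had 63.2, 14.1 and 23.4 CPM in V5, against 16.3, 13.6 and 16.4 in WT and 29.0 in the input.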

How the data were processed

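The authors deposited 1 column of raw counts for each library, beside an Entrez identifier and a length for each gene, per the file headers. Per the submitters' processing notes, bcl2fastq, featureCounts and MACS were used with build mm10. For the aligner, duplicates and counting options, the sources used here give nothing. The 7 files of single samples were identical to the table. Of 27179 identifiers, 25275 matched a RefSeq symbol (GRCm38.p6, the assembly of mm10), and 69.9% of these had a deposited length within 1% of the gene's span. Counts do not separate strands, and duplicate reads are not independent molecules, so intervals and floors (3 counts) cover counting error only.

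The contrast of V5 with WT was fitted in edgeR 4.0.16 under R 4.3.3 (filterByExpr, minimum count 10, TMM, robust glmQLFit, glmQLFTest, two-sided, Benjamini-Hochberg over 14575 genes, threshold 0.05). The input did not enter. Standard errors were derived from the F statistic. Poisson intervals are exact at 95%. The fit was tested on simulated data. Genes below the filter had a two-sided exact permutation test of CPM. ChIP over input is a ratio of CPM with no test. Alternatives were other scalings, no filter, DESeq2 1.42.0, a likelihood ratio test, limma-voom 3.58.1, the replicate block and leaving out libraries.

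No label says whether replicates came from separate embryos, so the p-values rest on the spread of these libraries alone, and that spread may be technical. No 2 libraries agreed within sampling noise (chi-square per degree of freedom at least 4.03). The members and lists were chosen with earlier results of these data known. Named besides the members are the pathway gene of smallest p per role and direction, nearest tested neighbours, the 3 genes most like Fgfr1, and Kat6a as the tagged gene. Tacc2, Nsd2, Nsd3, the genes listed at 0 and those whose groups did not overlap were named after their values were seen.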

Additional observations from a re-analysis of the deposited data

How the results depend on the processing

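No FGF member passed in any of the other fits or with any single library left out, where their adjusted p were at least 0.451 (Fgf10 without V5 replicate 3), and their total, V5 over WT, stayed between 0.957 and 1.06. Over all genes, 0 passed with the edgeR settings used in the report (611 at an unadjusted p under 0.05). With no count filter 9 passed, and 1 each with DESeq2 (709 at an unadjusted p under 0.05), the likelihood ratio test, limma-voom (380) and the replicate block. With single libraries left out it was 0 to 2, the 2 being without V5 replicate 2, and without V5 replicate 3 there were 1610 at an unadjusted p under 0.05. In their deviations from the group means, same-numbered V5 and WT libraries correlated at 0.0139, 0.00564 and 0.0602. Differently numbered ones correlated at -0.0469 to 0.0248. Whether the numbers pair libraries cannot be decided from these values, since counting noise can keep such correlations small.

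Members changed direction between V5 and WT only when single libraries were left out: log2 values ran from -0.16 to 0.21 in Fgfr2, -0.89 to 0.95 in Fgfr3, -0.49 to 0.24 in Fgf9 and -1.31 to 2.34 in Fgf8. Others named did so in Klb (-0.22 to 0.33), Ate1 (-0.14 to 0.052), Nsd1 (-0.098 to 0.18), Nsd3 (-0.23 to 0.088), Nnt (-0.54 to 0.11), 1700003P14Rik (-0.42 to 0.11) and Kat6a (-0.10 to 0.47). Over the input, V5 log2 ratios ran from -0.23 to 0.76 in Fgfr1, -1.33 to 0.35 in Fgfr3 and -2.84 to 0.81 in Fgf8, and WT ratios from -1.0 to 0.014 in Fgfr3, -0.41 to 0.14 in Fgfr4 and -0.36 to 0.74 in Spry2. With replicates pooled, Fgf8 in V5 stood at -0.19. The cause was not tested. By limma-voom, Fgfr2 stood at 0.25, Fgfr3 at 0.05 and Fgfr4 at -0.32. At these depths Fgf8 and Spry2 had too few counts for edgeR, and Spry1 and Dusp6 had none.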
